A study of Homo sapiens with 38 samples.

Results

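The loci of TAL1, STIL, LYL1, LMO1, LMO2 and LDB1 hold the oncogenes, and a shared cofactor gene, of a transcription factor complex that is active in a large group of T-cell leukaemias. They were examined in Jurkat cells, an established human line of T-cell acute lymphoblastic leukaemia, by chromatin immunoprecipitation and sequencing (ChIP-seq), which lists as peaks the places where a protein or histone mark was enriched. The members are 6 of 20037 protein-coding gene records, and each was taken with 100 kb on either side of its RefSeq record on GRCh38. All peaks, here called regions, that touched these 6 windows were used. They were 21 of the 29009 GATA3 regions, 27 of the 26205 BHLHE40 regions and 80 of the 113570 regions of H3K27ac, the acetylated form of histone H3 that marks active promoters and enhancers. Together they made 128 of 168784 regions, and 39 of them lay in the windows of both TAL1 and STIL, which are neighbouring genes.

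The series holds 38 samples in 19 groups of 2, with samples of base-edited cells and of cells that over-express BHLHE40. The 3 groups used here (Ctrl_LV GATA3, Ctrl_LV BHLHE40 and Ctrl_LV H3K27ac) hold Jurkat cells that carried the control lentivirus, and the other 16 groups were not analysed here. All 3 groups received PMA at 50 ng/ml with ionomycin at 500 ng/ml, a stimulus that imitates signalling through the T-cell receptor. It lasted 5 h per the sample labels and 2 h per the treatment protocol, so every statement below concerns stimulated cells and none compares them with resting cells. Each group of 2 samples is represented by 1 list of regions, so the spread between replicates could not be measured and no test between groups was possible. Depth per sample is unknown. Signal value (enrichment), score and q-value per region are the authors' own, and values were ranked only within a list. As a check of the cell type, an H3K27ac summit (the highest point of a region) lay within 1 kb of a gene's start, or of either end of its record where no start was listed, at 6 of 8 T-cell marker genes (CD3D, CD3E, CD2, CD7, LCK and CD28, but not CD3G and CD5). The same held for 1 of 3 B-cell markers (CD79A, by a weak region), 0 of 3 myeloid, 0 of 3 erythroid and 1 of 2 liver markers (APOA1). Over 15842 protein-coding genes with a listed start the share was 56.9%, so the T-cell count is a weak check. Of the T-cell markers, CD3E, CD3G, CD5 and CD7 had no listed start and were read at either end.

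TAL1 is a basic helix-loop-helix (bHLH) protein that binds E-box sequences together with E proteins and is normally silent in mature T cells. LMO1 and LMO2 are LIM-only proteins that do not bind DNA and instead bridge TAL1 to LDB1, an adaptor that binds LIM domains and associates with itself, and to GATA factors such as GATA3. LYL1 is a close relative of TAL1. STIL, a protein of centriole duplication, is a neighbour of TAL1 and becomes fused to it by a deletion in some patients. BHLHE40 is another bHLH factor, a repressor that binds the E-box CACGTG.

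The 6 windows differed widely in how densely they were covered. The TAL1 window held 7 GATA3, 6 BHLHE40 and 27 H3K27ac regions, and the overlapping STIL window held 6, 6 and 36. LYL1 had 6 GATA3, 11 BHLHE40 and 18 H3K27ac regions, and LDB1 had 4, 7 and 15. LMO2 had 3 GATA3, 2 BHLHE40 and 10 H3K27ac regions. The window of LMO1 held 1 region of each list. Because gene records differ in length, counts were also divided by the length of the window. TAL1 had 3.24 GATA3 regions per 100 kb, more than 90.0% of the windows of all protein-coding genes. LYL1 had 5.40 BHLHE40 regions per 100 kb, more than 95.1% of those windows, and STIL had 13.6 H3K27ac regions per 100 kb, more than 96.6%. At the other end, LMO1 had 0.409 regions per 100 kb of each list, which placed it above 17.9% of windows for GATA3, 17.5% for BHLHE40 and 4.75% for H3K27ac. The order for GATA3 was TAL1, LYL1, STIL, LDB1, LMO2 and LMO1. LMO2, at 1.28 GATA3 regions per 100 kb, lay at the median of protein-coding windows, which was also 1.28. These positions moved at stricter limits. With a score of at least 830, STIL (1.89) passed LYL1 (1.47, above 71.8% of windows) for GATA3. LMO2 then had 0.428, above 26.5% of windows, against a median of 0.923. LYL1 at that score was above 96.2% of windows for BHLHE40. With a −log10 q of at least 5, LYL1 (5.40, above 92.1% of windows) and TAL1 (5.09, above 90.4%) passed STIL (4.91, above 89.3%) for H3K27ac. Over the 6 windows the median densities were 2.04 for GATA3, 2.52 for BHLHE40 and 7.83 for H3K27ac, against 1.28, 1.52 and 5.79 over all protein-coding windows. A GATA3 region that overlapped both other lists was present in all 6 member windows, and in 68.9% of protein-coding windows. In these medians and counts over members, TAL1 and STIL enter separately although 39 regions lie in both windows, so they are not independent. Having some region was common: 87.0% of protein-coding windows held at least 1 GATA3 region, 87.2% at least 1 BHLHE40 region and 95.9% at least 1 H3K27ac region.

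**Figure D1:**
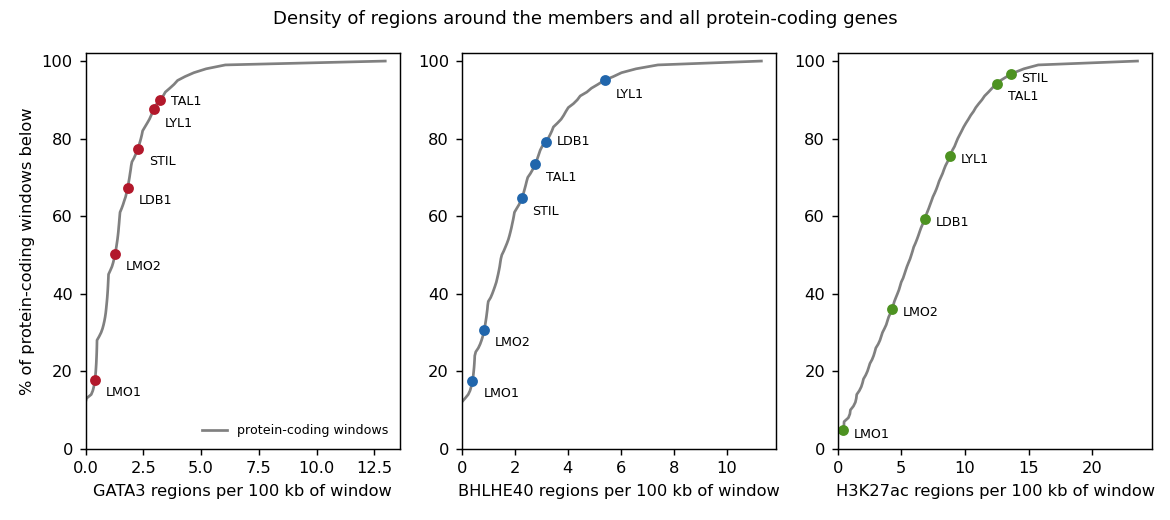
Density of regions per 100 kb of window (x axis) against the share of protein-coding windows with a lower density (y axis, percent), for GATA3, BHLHE40 and H3K27ac. The grey line runs over 20037 protein-coding windows and the points are the 6 members. TAL1 and LYL1 sit near the top for GATA3, LYL1 for BHLHE40 and STIL and TAL1 for H3K27ac, and LMO1 is the lowest member in each panel.

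Gene starts gave another order. A summit within 1 kb of the start was counted as occupancy of the start. GATA3 occupied the start of 2 of the 6 members (TAL1 and LMO1), against 22.1% of 15842 protein-coding genes with a listed start. BHLHE40 occupied 4 of 6 (TAL1, STIL, LMO1 and LDB1), against 48.0%. H3K27ac occupied 3 of 6 (TAL1, STIL and LMO1), against 56.9%. Counting also the upstream end of each record, a definition chosen after seeing the data, H3K27ac occupied 4 of 6, with LDB1 added. The added summit also lies inside the PPRC1 record, and no share over all genes is given for this definition. All 3 lists met at TAL1 and at LMO1, 2 of 6 members, against 20.2% of protein-coding genes. With so few members these counts stand near the background shares and single out no list. LYL1 had no summit of any list within 1 kb of its start, as was the case for 41.0% of protein-coding genes. For LMO2 no start was listed in the promoter table used, so either end of its record was tried, and neither was occupied.

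**Figure D2:**
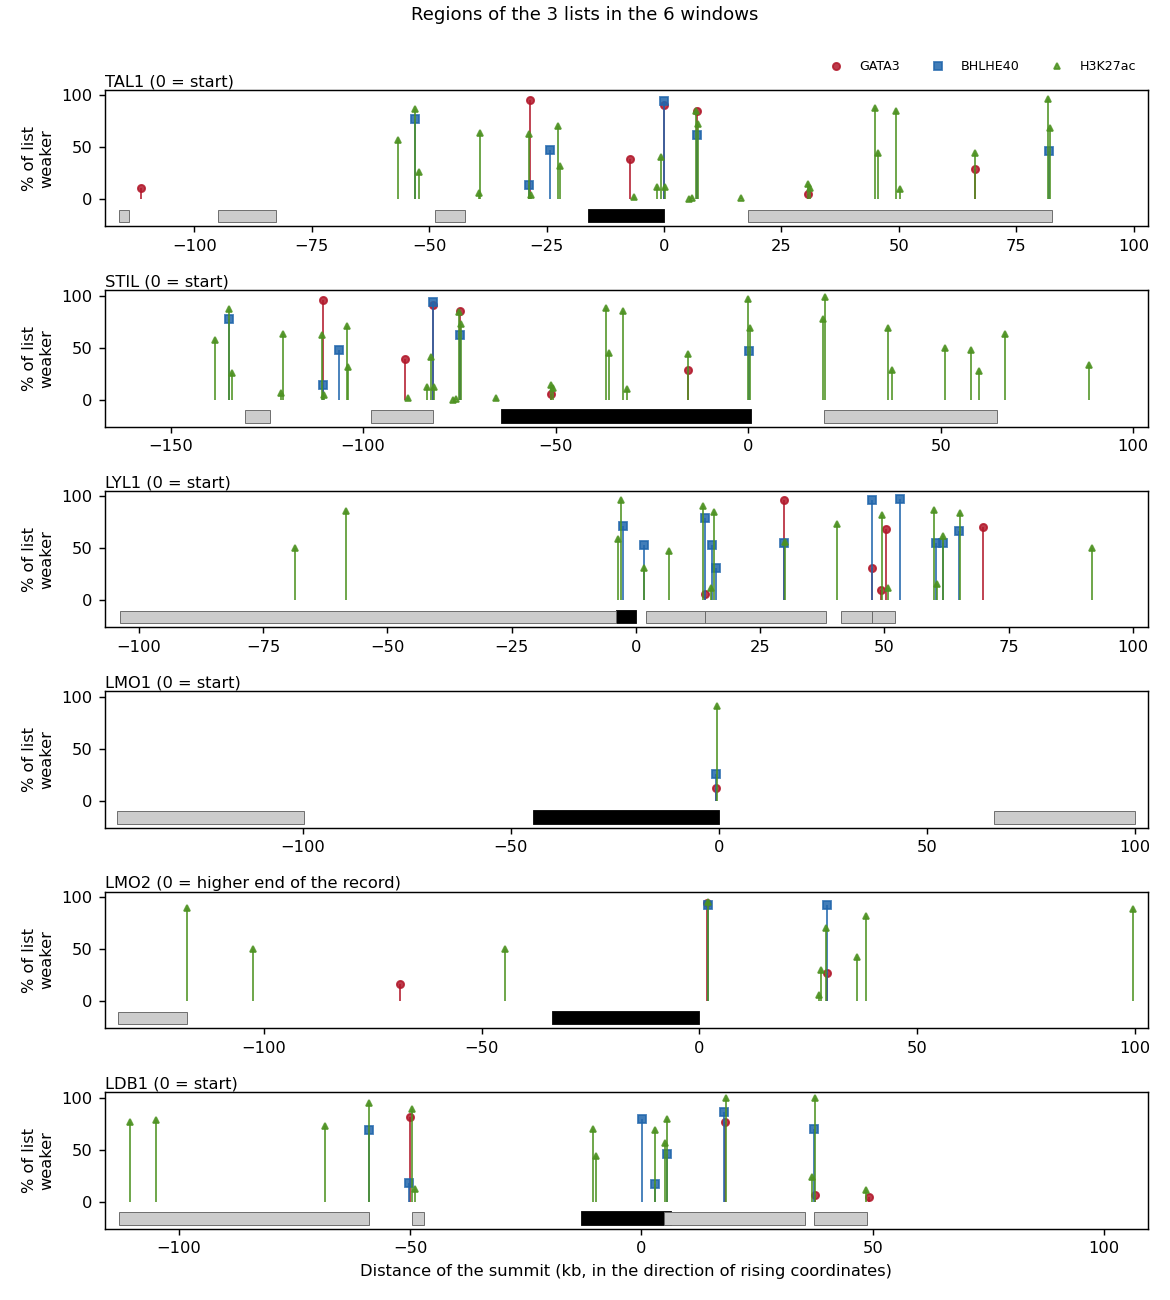
Summits of all regions in the 6 windows by distance in kb from the gene start (for LMO2 from the higher end of the record; x axis, rising with genome coordinates) and by the percent of their own list with a lower signal value (y axis). Red circles are GATA3, blue squares BHLHE40 and green triangles H3K27ac, black bars are the member genes and grey bars neighbouring protein-coding genes. The TAL1 window has 3 places where the factors meet, the LYL1 window is filled mainly on the side of NACC1 and IER2, and the LMO1 window has a lone cluster near the start.

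At TAL1, GATA3, BHLHE40 and H3K27ac met at 3 places: downstream of the gene, at its start and upstream of it. The start lies at position 47232335 of chromosome 1 on the minus strand, with another listed start at 47231715. The GATA3 region at the start, chr1:47232215-47232743, had a signal value of 35.3 and ranked 2733 in its list, above 90.6% of GATA3 regions. Its summit lay 61 bp from the start and the BHLHE40 summit lay 77 bp from it, 16 bp from the GATA3 summit. BHLHE40 (chr1:47230821-47232694, signal value 27.6) was above 93.9% of its list there. Both factors therefore ranked in the top 10% of their lists at the TAL1 start. H3K27ac was split into 3 regions around the start with signal values of 2.65, 3.07 and 2.65, which exceeded 12.2%, 40.8% and 12.2% of the H3K27ac list, although their −log10 q-values of 11.0, 16.5 and 10.9 were above the stricter limit of 5 used here. The 250 bases upstream of this start are shown because both factor summits fall in them, and the capitals mark the only AGATAA or TGATAA word (here read as its reverse complement), the typical GATA site. As printed, 29 bases lie between the word and the start, and the word is 28 bp from the GATA3 summit and 44 bp from the BHLHE40 summit. The sequence is RefSeq's for GRCh38.p14, chr1:47232336-47232585, minus strand. Jurkat DNA itself was not analysed here.
TAL1: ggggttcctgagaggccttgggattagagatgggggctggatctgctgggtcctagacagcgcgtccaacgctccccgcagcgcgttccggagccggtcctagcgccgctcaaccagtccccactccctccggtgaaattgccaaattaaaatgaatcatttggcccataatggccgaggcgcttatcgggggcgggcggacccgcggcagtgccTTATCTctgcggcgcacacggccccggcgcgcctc
Of the E-box words searched, CACGTG (the BHLHE40 type), CAGATG (the type of TAL1 with E proteins) and CAGCTG (a general type), none occurs in these bases.

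Upstream of TAL1, GATA3 (chr1:47238630-47239712, signal value 26.2) was above 84.9% of its list, with its summit 7015 bp before the start. BHLHE40 (chr1:47238994-47239577, signal value 11.2) was above 61.9% of its list, and the summits lay 21 bp apart. H3K27ac flanked these summits: chr1:47238610-47239269 (−log10 q 32.3, above 84.3% of the list by signal value) ended 81 bp to 1 side of the GATA3 summit and chr1:47239451-47240067 (−log10 q 23.2, above 72.2%) began 101 bp to the other side. The interval of 181 bp between them had no H3K27ac region. Here H3K27ac ranked higher than at the TAL1 start. Upstream of TAL1 is also where an insertion that creates MYB sites is known in Jurkat cells, and the deposited regions do not show the cells' sequence.

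Downstream of TAL1 the factors ranked far apart. GATA3 had its strongest region of the window there (chr1:47203309-47204046, signal value 54.4, rank 1244), above 95.7% of its list. BHLHE40 at the same place (chr1:47203531-47203998, signal value 5.78) was above 14.2% of its list, a difference of 81.6 percentage points, with the summits 32 bp apart. The place lies 28000 bp from the nearer TAL1 start, 12575 bp outside the record and in no gene record. H3K27ac there was weak by q-value, with −log10 q-values of 4.23 (chr1:47203340-47203710) and 1.21 (chr1:47203918-47204097). By signal value the first was above 62.6% of its list, higher than the regions at the TAL1 start, and the other above 4.38%. The GATA3 summit again lay between these regions, which are 207 bp apart. A further GATA3 region inside TAL1, chr1:47224822-47225222, had a signal value of 9.65 and touched neither other list. BHLHE40 alone was present at chr1:47207719-47208237 with a signal value of 9.06. The remaining GATA3 regions had low signal values: 1 at the far edge of the window (chr1:47120738-47121060, signal value 6.54) and 2 inside STIL, chr1:47262770-47263119 and chr1:47298398-47298714, with signal values of 5.72 and 8.45. The first of the 2 inside STIL nevertheless had a score of 1000 and a −log10 q of 39.2. Both overlapped H3K27ac regions, with −log10 q-values of 1.65 and 2.90.

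STIL itself had a start with BHLHE40 and H3K27ac but without GATA3. The BHLHE40 region chr1:47313613-47314982 had a signal value of 8.94, with the summit at 206 bp from the start. The H3K27ac region chr1:47313597-47314215, with a signal value of 8.41 and a −log10 q of 38.8, was above 96.3% of its list. The nearest GATA3 summit was 15618 bp away. On the far side of STIL, the start of CMPK1, a nucleoside monophosphate kinase gene, carried H3K27ac above 98.2% of the list (chr1:47333874-47334949, signal value 10.6) and neither factor. PDZK1IP1, CYP4Z1 and CYP4A22 on the TAL1 side had no summit of any list within 1 kb of their starts, or of either record end for CYP4A22. The STIL window thus owed all 3 of its places with all 3 lists to those near TAL1.

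LYL1 differed from TAL1 in that no GATA3 region touched its record and no summit of any list lay within 1 kb of its start at 13102858 on chromosome 19. The nearest BHLHE40 summit was 1631 bp from the start, upstream, in chr19:13104048-13104883 (signal value 9.76) at the start of the non-coding RNA LOC105372282. H3K27ac there had a −log10 q of 3.06 and was above 30.6% of its list by signal value. Inside LYL1, a BHLHE40 region (chr19:13099451-13100608, signal value 13.2) overlapped an H3K27ac region (chr19:13099387-13100273) above 96.5% of its list, with a −log10 q of 32.0. Its BHLHE40 summit lay 2637 bp from the start. The nearest GATA3 summit was 13837 bp away, at the start of TRMT1, a tRNA methyltransferase gene. The 250 bases upstream of LYL1 are shown in contrast to those of TAL1: they also hold a GATA word, in capitals, with 21 bases between the word and the start, but no region of any list touched these bases. They are chr19:13102859-13103108, minus strand, on GRCh38.p14 from RefSeq.
LYL1: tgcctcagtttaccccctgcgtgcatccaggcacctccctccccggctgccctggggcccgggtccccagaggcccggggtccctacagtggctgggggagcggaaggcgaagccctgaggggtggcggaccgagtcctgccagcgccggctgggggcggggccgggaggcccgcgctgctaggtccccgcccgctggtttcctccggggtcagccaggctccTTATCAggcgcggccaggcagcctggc
The nearest GATA3 summit to this word was 13812 bp away and the nearest BHLHE40 summit 1606 bp away.

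The LYL1 window nevertheless held the strongest GATA3 region of the 6 windows. It was chr19:13132351-13133158, with a signal value of 61.1 and rank 974, above 96.6% of the list. Its summit lay inside NACC1, a gene of a nuclear transcriptional regulator, and 29856 bp upstream of the LYL1 start. A BHLHE40 summit lay 9 bp from it, in a region above 54.5% of its list (chr19:13132416-13132987, signal value 9.96). H3K27ac there was weak by q-value (−log10 q 3.96), though above 56.4% of its list by signal value. Further out, the strongest BHLHE40 region of the 6 windows began inside IER2, an immediate-early gene that is switched on within minutes of stimulation. The region spanned 6625 bp (chr19:13151500-13158124), had a signal value of 40.6 and rank 642, and was above 97.6% of its list. Its summit lay 1149 bp outside the IER2 record, in no gene record and no H3K27ac region. GATA3 regions of signal value 6.38 and 15.7 overlapped this region, with summits inside IER2, 3932 and 2871 bp from the BHLHE40 summit. H3K27ac in IER2 had −log10 q-values of 77.9 and 25.2 and was above 82.1% and 12.2% of its list by signal value. At the start of IER2, which lies beside that of STX10, BHLHE40 (chr19:13149517-13151387, signal value 35.5) was above 96.5% of its list, and GATA3 (chr19:13150136-13150638, signal value 8.66) above 30.8%. That was the only place of the 6 windows where both factors overlapped without H3K27ac. At TRMT1, BHLHE40 (signal value 15.4, above 78.7%) again ranked far above GATA3 (signal value 5.78, above 5.58%), with H3K27ac at a −log10 q of 33.9. GATA3 alone was present at chr19:13172362-13172863 with a signal value of 16.4.

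LMO1 carried 1 region of each list, all at its start and all overlapping. The start lies at 8268787 on chromosome 11. GATA3 (chr11:8267911-8268538, signal value 6.74) was above 12.4% of its list and BHLHE40 (chr11:8267616-8268462, signal value 6.80) above 25.2%, with summits 45 bp apart. H3K27ac (chr11:8267835-8268553, signal value 5.56, −log10 q 11.1) was above 90.5% of its list. The summits lay 709, 664 and 398 bp from the start, inside the record. Thus weak factor regions coincided with an H3K27ac region in the top 10% of its list. No other factor summit was listed for 148.084 kb on the side of lower coordinates and for 414.554 kb on the other side. The neighbouring genes RIC3 and STK33 had none at either end of their records. At most 1 region of each factor was found in the windows of 16.9% of protein-coding genes. A window with exactly 1 region of each list occurred at 0.270% of protein-coding genes, and with all 3 overlapping at 0.110% (22 genes). This pattern was singled out after its values were seen. Both factor regions scored below 830, the score that stands for an irreproducible discovery rate (IDR) of 0.01 on the usual scale of such lists, and neither remained at that limit.

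LMO2 had no region of any list inside its record, and its strongest place lay just outside. There, GATA3 (chr11:33893330-33894718, signal value 45.4, rank 1744) was above 94.0% of its list. BHLHE40 (chr11:33893445-33894376, signal value 24.5) was above 92.1% of its list and H3K27ac (chr11:33893166-33894419, signal value 7.55, −log10 q 27.3) above 95.1%. All 3 were in the top 10%, a combination that no other place of the 6 windows showed. The GATA3 summit lay 1715 bp beyond the higher-coordinate end of the LMO2 record and 155 bp before the start of the non-coding RNA LOC105376621, which runs on the plus strand. The GATA3 and BHLHE40 summits were 181 bp apart. The 250 bases upstream of LOC105376621 are shown because the GATA3 summit falls in them, and they hold 1 GATA word, in capitals, 8 bp from the GATA3 summit and 190 bp from the BHLHE40 summit. They are chr11:33893696-33893945, plus strand, on GRCh38.p14 from RefSeq.
LOC105376621: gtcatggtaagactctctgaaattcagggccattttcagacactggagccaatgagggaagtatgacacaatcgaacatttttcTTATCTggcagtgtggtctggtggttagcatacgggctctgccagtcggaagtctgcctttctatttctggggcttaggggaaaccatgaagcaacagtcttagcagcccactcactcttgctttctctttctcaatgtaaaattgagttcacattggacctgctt
As at TAL1, the word is TTATCT, the reverse complement of AGATAA, and no searched E-box word occurs.

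The other place at LMO2 with all 3 lists lay 29381 bp from the record. BHLHE40 (chr11:33921098-33921892, signal value 25.7) was above 92.8% of its list there and GATA3 (chr11:33920894-33921648, signal value 8.30) above 27.3%, with summits 9 bp apart. H3K27ac (chr11:33920946-33921362) was weak by q-value (−log10 q 3.85), though above 70.4% of its list by signal value. It ended 95 bp before the GATA3 summit. The nearest gene record, that of the non-coding RNA LOC124902659, was 7334 bp away. Both BHLHE40 regions of the LMO2 window were in the top 10% of their list. A further GATA3 region, chr11:33823114-33823492, had a signal value of 7.15 and touched no other list.

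LDB1 had a BHLHE40 region at its start and no GATA3 region inside its record. The BHLHE40 region chr10:102114846-102115516 had a signal value of 15.5, above 78.9% of its list, with the summit 61 bp from the start at 102115002. No H3K27ac or GATA3 region touched it, and the nearest H3K27ac summit lay 2866 bp from the start. This listed start lies 6440 bp inside the LDB1 record, whose upstream end is at 102121442. At that end a BHLHE40 summit lay 884 bp away and an H3K27ac summit (−log10 q 13.8) 966 bp away. At LDB1, BHLHE40 without H3K27ac was therefore seen at the listed internal start only. This pattern was found at 1.69% of 15842 protein-coding genes and was singled out after its values were seen. The starts of STX10 and IER2, in the LYL1 window, also showed it. Both summits near the upstream end lie inside the records of LDB1 and PPRC1, so they cannot be assigned to either gene. The 250 bases upstream are shown because the BHLHE40 summit falls in them, and they hold none of the GATA or E-box words, so no base is in capitals. They are chr10:102115003-102115252, minus strand, on GRCh38.p14 from RefSeq.
LDB1: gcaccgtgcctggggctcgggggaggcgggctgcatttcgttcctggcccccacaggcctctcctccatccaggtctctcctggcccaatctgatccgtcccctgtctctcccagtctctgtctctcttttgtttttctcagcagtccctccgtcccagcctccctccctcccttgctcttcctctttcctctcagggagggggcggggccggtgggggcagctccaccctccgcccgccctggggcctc
Within the LDB1 record, BHLHE40 overlapped H3K27ac at chr10:102117519-102118120 (signal value 6.00) and, where the record overlaps that of PPRC1, at chr10:102119484-102120950 (signal value 8.83).

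The 3 places of the LDB1 window with all 3 lists belonged to neighbouring genes. The strongest GATA3 region, chr10:102064389-102065584 with a signal value of 23.2 and above 81.6% of its list, was found at the start of HPS6, a gene of lysosome-related organelle formation. BHLHE40 there (chr10:102064570-102065584, signal value 6.15) was above 18.0% of its list. At PPRC1, a coactivator gene of mitochondrial biogenesis, both factors ranked high, BHLHE40 (chr10:102132494-102134151, signal value 19.2) above 86.5% and GATA3 (chr10:102132630-102133559, signal value 19.3) above 76.1%. H3K27ac at the PPRC1 start was above 99.4% of its list, with a −log10 q of 155. NOLC1, a nucleolar protein gene, carried the strongest H3K27ac region of the 6 windows (chr10:102152246-102153077, signal value 13.9, −log10 q 181). BHLHE40 at NOLC1 (chr10:102151822-102153420, signal value 12.8) was above 70.1% of its list and GATA3 (chr10:102152086-102152851, signal value 5.89) above 6.00%. The H3K27ac of this window was therefore highest at its neighbours and not at the LDB1 start.

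Touching regions of the 3 lists were joined into places, each counted once over the 6 windows. GATA3, BHLHE40 and H3K27ac came together at 12 places, BHLHE40 with H3K27ac at 11, GATA3 with H3K27ac at 2 and both factors without H3K27ac at 1. GATA3 stood alone at 5 places, BHLHE40 at 3 and H3K27ac at 46. Of the 21 GATA3 regions, 14 overlapped BHLHE40 (66.7%, 95% Wilson interval 45.4% to 82.8%, which covers counting only). The share was 48.7% over the whole GATA3 list and 50.3% over regions in any protein-coding window, and both fall inside the interval. GATA3 overlapped H3K27ac at 15 of 21 regions (71.4%, interval 50.0% to 86.2%), against 49.1% of the list, which lies below the interval, and 51.0% of regions in protein-coding windows, which lies inside it. Counting stronger H3K27ac alone (−log10 q 5 or more), it fell to 10 of 21 (47.6%), against 33.4% of the list. BHLHE40 overlapped H3K27ac at 23 of 27 regions (85.2%, interval 67.5% to 94.1%), against 76.4% of its list. BHLHE40 overlapped GATA3 at 13 of 27 regions (48.1%, interval 30.7% to 66.0%), against 53.0%. Over regions in protein-coding windows the 2 BHLHE40 shares were 77.4% and 51.6%. All 4 intervals held the share over protein-coding windows, so no difference from it was detectable with this few regions. The share of GATA3 on H3K27ac was the only 1 of the 4 whose interval left out the whole-list share.

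Of the 80 H3K27ac regions, 37 (46.2%) reached a −log10 q of 5, against 25.1% of the whole list. A factor overlapped 27 of these 37 (73.0%, against 70.0% in the list) and 7 of the 43 weaker regions (16.3%, against 11.8%). The signal values of the members' regions were spread over their lists. GATA3 ran from 5.50 to 61.1 with a median of 8.66, against 11.2 for the whole list, and 4 of 21 were in its top 10%. BHLHE40 ran from 5.78 to 40.6 with a median of 11.2, against 9.35, and 5 of 27 were in its top 10%. H3K27ac had a median of 3.36, against 3.31, with 9 of 80 in its top 10%.

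The factors met in 14 overlapping pairs at 13 places, as a pair of GATA3 regions at IER2 share 1 BHLHE40 region. The ranks within each list differed by a median of 52.9 percentage points over these pairs, against 24.3 over all 14123 GATA3 regions that overlap BHLHE40, and by over 50 points in 7 of 14 pairs (50%, against 20.7%). The ranks lay close at the place beside LMO2, the TAL1 start, PPRC1 and LMO1, where they differed by 1.89 points in favour of GATA3 and by 3.32, 10.4 and 12.9 points in favour of BHLHE40. GATA3 ranked higher at 5 of the 14 pairs (35.7%, against 48.4% over all pairs): the 2 distal TAL1 places, NACC1, HPS6 and the place beside LMO2. BHLHE40 ranked higher at the others, among them IER2, TRMT1, NOLC1 and the distal LMO2 place. The TAL1 start and the place beside LMO2 were the only pairs where each factor was in the top 10% of its own list. Summits of the 14 pairs lay 9 to 3932 bp apart, with a median of 64 bp against 35 bp over all pairs, and 7 of 14 were within 50 bp (50%, against 61.5%).

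**Figure D3:**
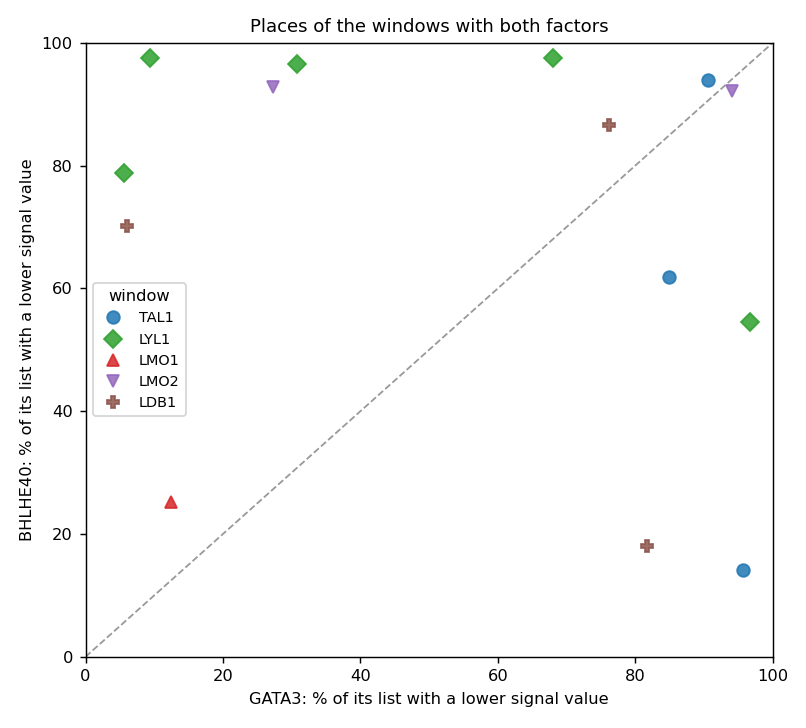
Each point is 1 of 14 overlapping pairs of GATA3 and BHLHE40 regions, placed by the percent of the GATA3 list (x axis) and of the BHLHE40 list (y axis) with a lower signal value; the dashed line marks equal ranks. Pairs of the shared TAL1 and STIL interval are drawn as TAL1. The TAL1 start and the place beside LMO2 sit in the upper right corner, the LMO1 pair is low for both factors, and most LYL1 pairs lie at the upper left.

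Most occupied starts in these windows belonged to other genes. Within 1 kb of any listed start lay 7 of the 21 GATA3 regions (33.3%, interval 17.2% to 54.6%), against 14.9% of regions in protein-coding windows. Of these 7 regions, 2 were at a member's start. For BHLHE40 the count was 14 of 27 (51.9%, interval 34.0% to 69.3%), against 34.1%, with 4 at members, and for H3K27ac it was 19 of 80 (23.8%, interval 15.8% to 34.1%), against 15.2%, with 6 at members. The share over protein-coding windows lay below the interval for GATA3 and H3K27ac and inside it for BHLHE40. The intervals cover counting only, and the regions cluster in 6 windows. These background shares rest on 24414 GATA3, 23384 BHLHE40 and 92043 H3K27ac regions. The overlap shares above used 25443 GATA3 and 24320 BHLHE40 regions in protein-coding windows, so the sets are not the same. Of the GATA3 regions, 4 had their summit inside a member's record, 8 inside another gene record and 9 between records. The corresponding counts were 6, 8 and 13 for BHLHE40 and 20, 32 and 28 for H3K27ac. Among the 16 neighbouring protein-coding genes, 6 had GATA3, 8 BHLHE40 and 9 H3K27ac at the start or, where no start was listed, at an end of the record. Among the 11 with a listed start the counts were 5, 7 and 7. The shares over all protein-coding genes with a listed start were 22.1%, 48.0% and 56.9%. These shares are measured as for the 11 and not as for the 16. With so few neighbours, clustered in the same windows, a difference from these shares was not tested.

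The searched words were set beside all promoters of the same length. A GATA word (AGATAA or TGATAA, both strands) was found in 14.6% of 35116 promoter records of 250 bases, and in 17.9% of the 1464 that held a GATA3 summit. Of the 6 promoter records of the members (TAL1 has 2 and LMO2 is not listed), 2 held such a word, those of TAL1 and LYL1 shown above. The E-box CACGTG was found in 6.34% of all records and in 12.6% of the 5583 with a BHLHE40 summit, CAGATG in 12.2% of all and CAGCTG in 14.0%. No member promoter held any of these E-boxes, and 29.2% of all records held at least 1. CACGTG and CAGCTG are their own reverse complements, CAGATG is not, and both strands were searched. GC content was 64.8% and 54.8% upstream of the TAL1 starts at 47232335 and 47231715, 61.6% for STIL, 75.2% for LYL1, 67.2% for LDB1 and 45.6% for LMO1, against a median of 58% over all records. A match describes letters in these bases only.

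Genes of the other proteins in the complex had a median of 4.18 GATA3 regions per 100 kb, against 2.04 for the members. For the 8 partners of the complex (GATA3, RUNX1, MYB, TCF3, TCF12, SSBP2, SSBP3 and CBFA2T3), GATA3 occupied 5 starts, BHLHE40 7 and H3K27ac 8, beside the shares of 22.1%, 48.0% and 56.9% over protein-coding genes. Each of the 8 windows held a GATA3 region that overlapped both other lists, as did 68.9% of protein-coding windows, 1 of the 4 paralogue windows and 3 of the 5 windows of other oncogenes. MYB, a transcription factor gene that is a known target of the complex, had the highest density of each list, with 28 GATA3, 24 BHLHE40 and 42 H3K27ac regions. Its 11.8 GATA3 regions per 100 kb exceeded 99.99% of protein-coding windows, and its 10.1 BHLHE40 regions 99.97%. TCF3, an E protein gene, was lowest of the partners with 1 GATA3 region, 0.411 per 100 kb. The 4 paralogues of the members (TAL2, LMO3, LMO4 and LDB2) had no GATA3 at a start, and BHLHE40 and H3K27ac at 1 start, that of LMO4. LMO3 had 0 GATA3, 0 BHLHE40 and 4 H3K27ac regions in its window. The 5 oncogenes of other T-cell leukaemia subtypes (TLX1, TLX3, NKX2-1, HOXA9 and OLIG2) had no list at a start, and NKX2-1 was lowest with 3 H3K27ac regions and no factor. Above the median GATA3 density of protein-coding windows were 7 of 8 partners, 1 of 4 paralogues, 3 of 5 other oncogenes and 5 of the 6 members, among which LMO2 exceeded it by less than the rounding of 1.28. For H3K27ac the counts were 7 of 8, 1 of 4, 0 of 5 and 4 of 6.

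**Figure D4:**
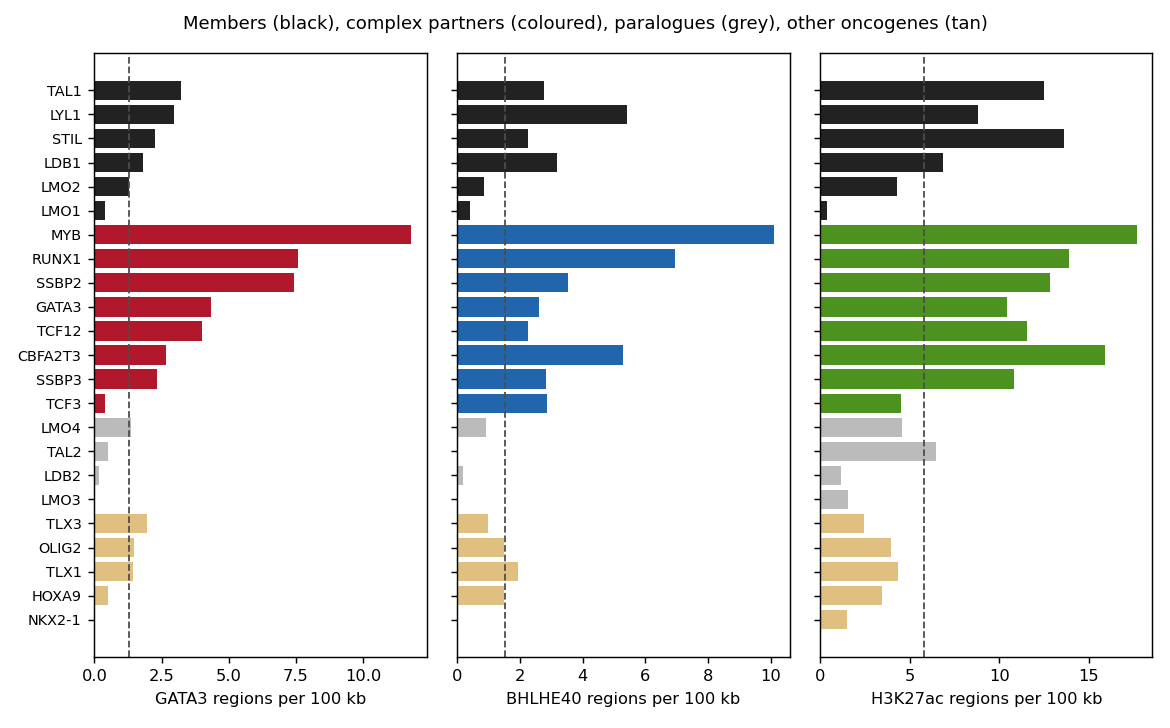
Regions per 100 kb of window (bars from 0) for the 6 members (black), 8 complex partners (coloured), 4 paralogues (grey) and 5 oncogenes of other T-cell leukaemia subtypes (tan), for GATA3, BHLHE40 and H3K27ac. The dashed line is the median over protein-coding windows. MYB is highest in each panel, and LMO1 is the lowest member in each.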

How the data were processed

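Samples were grouped by their titles, and the regions of 3 of the 19 groups were used. Per the labels' protocols, formaldehyde-fixed chromatin was sonicated and precipitated with an antibody. The submitters' processing notes name hg38, MACS2 and bcl2fastq 2.20; which step each served, and the aligner, are not given in the sources used here. The authors deposited 1 list per group in narrowPeak layout, named as filtered at an IDR of 0.05 for the factors and as pooled for H3K27ac, so weak but repeatable factor regions remain and many weak H3K27ac regions do. The deposited signal value has no stated reference, so it was ranked only within a list. The deposited score of the factor lists ran from 540 to 1000. The −log10 q-values are also the authors'.

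Each line was 1 region, as no lines overlapped within a list, and overlap meant at least 1 bp. Starts, strands and upstream sequences came from a RefSeq promoter table of GRCh38.p14, which matched 5 of 6 members; gene records came from the RefSeq gene table of the same assembly. The named members were all 6, with coordinates for the strongest region of each list, every place with all 3 lists and the regions at a start, and neighbours where such a region lay in or near them. Other pathway genes were counted as lists and named with values for the highest and lowest. The members, gene lists and rules were chosen with earlier results of these data known. Alternatives were a score of at least 830, a −log10 q of at least 5, windows of 50 kb, overlap by summit or by 50% of the region, and other definitions of a start. Shares carry Wilson intervals, and the depth is unknown. Counting functions were tested on simulated data. The work used scipy 1.17.1, pandas 2.3.3, numpy 2.4.6, matplotlib 3.10.9 and Python 3.11.15.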

Additional observations from a re-analysis of the deposited data

How the results depend on the processing

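Over 10 results on counts of regions, shares and starts, 39 alternatives were computed, 35 of them planned, and 33 left the value within 1.5 times a count or within its interval. At a score of at least 830, GATA3 regions in the windows fell from 21 to 12 and starts with GATA3 from 2 to 1, because LMO1 lost its region. The share of protein-coding genes with GATA3 at a start fell as well, from 22.1% to 15.3%. H3K27ac regions numbered 37 at a −log10 q of at least 5 and 44 without the TAL1 and STIL windows, in place of 80. The share of GATA3 regions on H3K27ac was 47.6% at a −log10 q of at least 5, in place of 71.4%. The share of BHLHE40 regions on H3K27ac was 66.7% when the summit had to lie inside the H3K27ac region, in place of 85.2%. For 18 counts per gene, 54 alternatives were run and 44 stayed within that range. Searching for GATAA alone, added after seeing the data, gave the same 2 of 6 promoter records. Counting the upstream end of each record as a start, also added then, gave starts with GATA3, BHLHE40 and H3K27ac at 2, 4 and 4 members, in place of 2, 4 and 3. No paired analysis was possible because the 2 samples of a group share 1 list. Leaving out a replicate was not run for the same reason. The unknown depth, the absence of replicate values and the small number of regions limit every share.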
